A study of Rattus norvegicus with 12 samples.

Results

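The genes described here are 52 interferon-stimulated genes, measured in the rostral ventrolateral medulla (RVLM), a part of the brainstem from which nerve cells set sympathetic outflow and blood pressure. They were chosen by name, as genes that cells switch on when they meet interferon; no measured value enters the rule, but the list was drawn up with earlier results of these data known. The arrays carried 57 probes for 45 of them, and 40 could be tested, among 25421 items tested in all (a gene with its brightest probe, or a probe without a gene name). RNA came from tissue micropunches of male F344 rats, an inbred strain, and the labels name no treatment. Young rats were 3 months old, middle-aged rats 12 months and aged rats 24 months, and each age had 3 animals. Each animal was hybridised to a 1-colour whole-genome array, and replicate 3 of each age to a pair of them, which gave 12 arrays on 3 slides. The series set out to compare immune genes of this region between ages. A punch holds neurons, glia, vessels and blood, so fewer cells of a type and less RNA per cell cannot be told apart.

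Interferons are secreted alarm proteins. The type I interferons (alpha and beta) act on a receptor on nearly every cell, which activates STAT factors, Stat2 among them; with Irf9 these form a complex that binds the interferon-stimulated response element (ISRE) in promoters. Interferon gamma, made by T and NK cells, acts through its own receptor, and its signal reaches promoters at the gamma-activated site (GAS). The target genes make proteins that destroy viral RNA, hold virus particles at the membrane, disrupt the vacuoles of intracellular parasites, sense foreign nucleic acid, or raise the cell's readiness to respond again. In the brain, microglia and vessels are known as strong responders, and a tonic low level of this programme is known in the absence of infection.

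Values are log2 signals relative to the 75th percentile of the same array, 1 value per animal, and compare ages for a probe but not one gene with another. Differences are log2 units ± the standard error (SE) of the limma fit, with n = 3 animals at each age. A gene is said to rise or fall only where its two-sided limma p was under 0.05 after Benjamini-Hochberg adjustment over the 25421 items. Arrays had 73.5% to 77.1% of spots well above background, 57 to 140 outlier spots and 0 saturated spots. The RVLM markers Th and Dbh, enzymes of catecholamine synthesis, were well above background on all 12 arrays. The number of animals and arrays limits the precision.

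Most interferon-stimulated genes had a somewhat higher mean at 24 months than at 3 months, and none of them passed the test singly, which does not show that they did not differ. The median difference of the 40 genes was 0.29, against 0.03 over all items, and 36 of 40 differences lay above 0, against 57.8% of all items. In 12 genes all aged animals lay above all young animals (30% of the 40, background 14%): Oas1a, Isg20, Ifi27, Ifi44l, Ifi47, Igtp, Irgm, Irf7, Irf9, Parp9, Parp14 and Herc6. In 1 gene, Mx2, all aged animals lay below (background 8.68%). By the adjusted limma test 0 of the 40 rose and 0 fell, where 2.05% of all items passed (1.57% rose and 0.472% fell). At an unadjusted limma p under 0.05 there were 12 higher and 1 lower, against 10.3% and 4.93% of all items. The lowest adjusted p was that of Ifi47, 0.086. The median depended on the background correction: with normexp, which models background from the raw signals, it was 0.12. Single genes were unlike in this: with normexp Igtp was 0.11, Parp14 0.12 and Zbp1 0.07, while Irf7 was 0.53, Gbp2 0.44 and Oas1a 0.44. Without young replicate 1 the fit passed Rsad2 alone of the 40 (adjusted p = 0.0458).

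**Figure D1:**
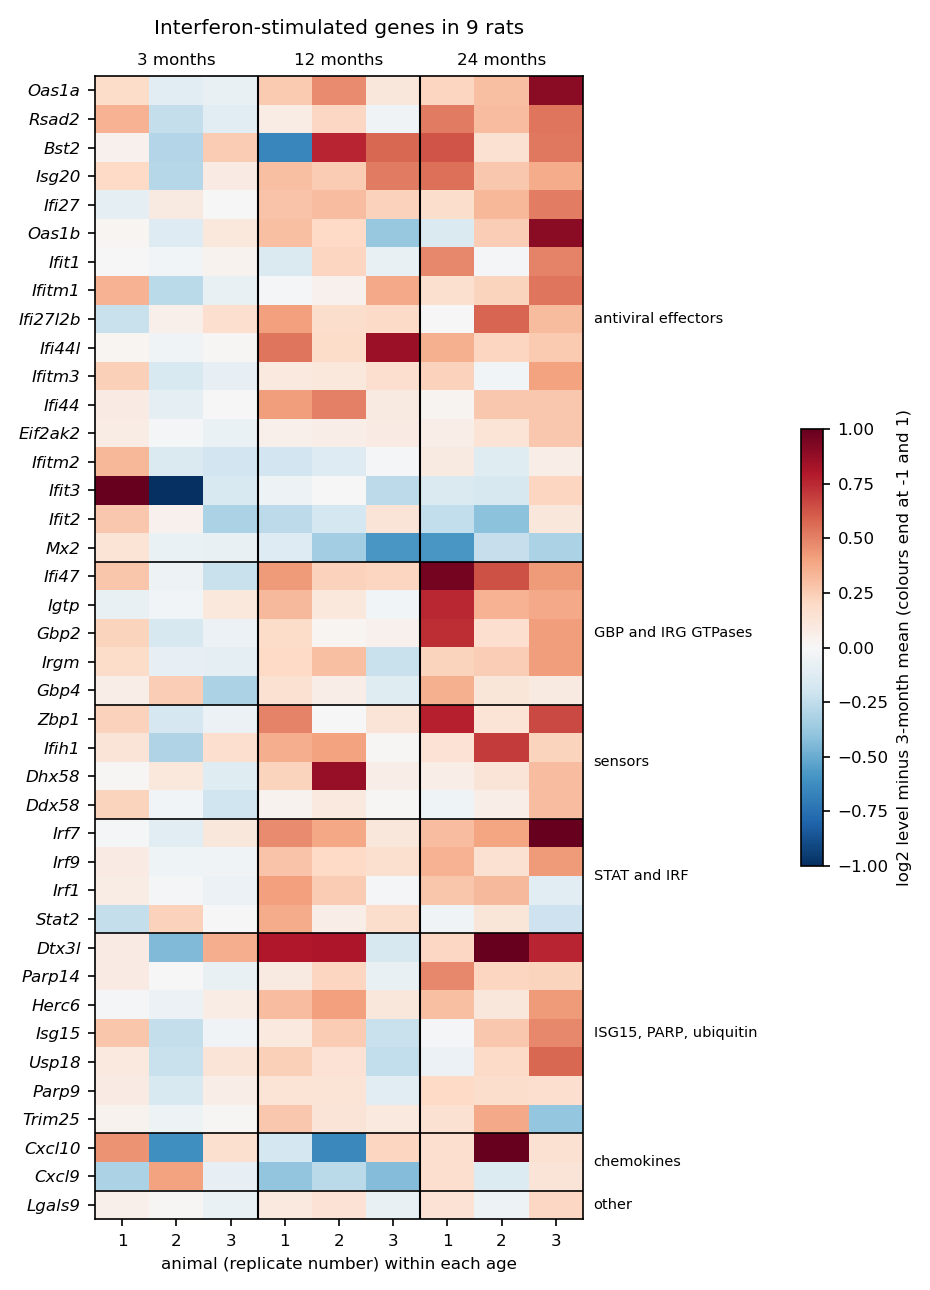
Log2 level of each of the 40 tested genes (rows, grouped by role) in each of 9 rats (columns, 3 at each age), as the difference from the mean of the 3 rats aged 3 months; colours end at −1 and 1. Red is more frequent at 24 months, where replicate 3 held the highest value of the 9 rats in 16 genes, and Mx2 is blue in every rat aged 12 or 24 months.

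**Figure D2:**
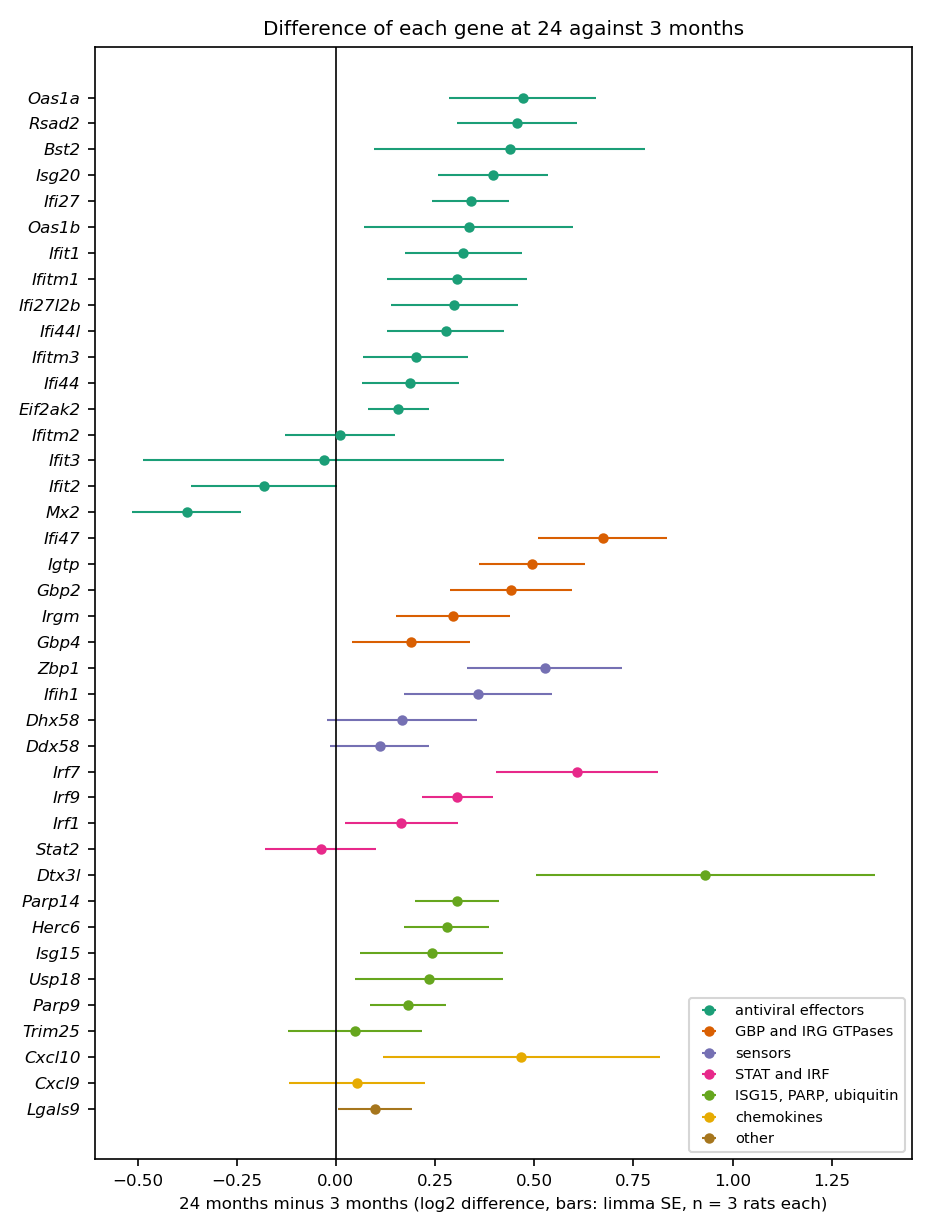
Difference at 24 against 3 months of the 40 tested genes (log2, points), with the limma SE as bars and n = 3 rats at each age, coloured by role. The points to the right of 0 number 36, and Ifit2, Ifit3, Mx2 and Stat2 lie to the left.

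Of the ligands and receptors, which are not among the 52 genes, the arrays measured few. Of 11 interferon ligand genes on the list used, 2 were well enough above background to be tested, and 0 passed: Ifna4, an interferon alpha, differed by 0.52 ± 0.16 (limma adjusted p = 0.182) and Ifna11 by 0.15 ± 0.17 (adjusted p = 0.718). Of 6 receptor and kinase genes 1 rose and 0 fell at 24 against 3 months. It was Ifngr1, the ligand-binding chain of the interferon gamma receptor, by 0.38 ± 0.08 (limma adjusted p = 0.0421). This call was lost in 17 of 23 other settings (highest adjusted p 0.233, with slide as a block). Of 10 genes for the induction of interferon, Tlr3, the endosomal sensor of viral RNA, was the 1 that rose (0.39 ± 0.07, limma adjusted p = 0.0388), and 15 of 23 other settings lost the call (highest adjusted p 0.141).

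The STAT and IRF factors carry the signal to DNA. Irf7, which amplifies type I interferon production, was at −0.95, −1.05 and −0.83 in the young animals, −0.47, −0.56 and −0.83 in the middle-aged, and −0.64, −0.55 and 0.18 in the aged. All aged values lay above all young values, and replicate 3 stood well above the other aged animals. The difference at 24 against 3 months was 0.61 ± 0.20, a 1.52-fold higher mean (limma adjusted p = 0.211). Irf9, the DNA-binding subunit of the complex with Stat2, was at −0.83, −0.96 and −0.95 at 3 months, −0.62, −0.72 and −0.75 at 12 months, and −0.57, −0.76 and −0.49 at 24 months. Its young animals lay below all others, while the 12-month and 24-month animals overlapped. The aged minus young difference was 0.31 ± 0.09 (limma adjusted p = 0.151) and 0.38 ± 0.09 with slide as a block (adjusted p = 0.096). Irf1, a factor induced by interferon gamma, differed by 0.17 ± 0.14 (adjusted p = 0.624) and Stat2, the partner that does not bind alone, by −0.04 ± 0.14 (adjusted p = 0.923). The median of these 4 genes was 0.24 at 24 against 3 months, 0.22 at 12 against 3 months and 0.02 at 24 against 12 months.

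Among 10 STAT, IRF and brake genes outside the 52, the same comparison had 2 that rose and 0 that fell. Irf5, a factor of macrophages that drives cytokine genes, rose by 0.66 ± 0.09 (limma adjusted p = 0.00615), and Ptpn6, a phosphatase of blood cells and microglia that damps receptor signals, rose by 0.96 ± 0.12 (adjusted p = 0.00566). Both passed in all 23 other settings. Stat3, which carries interleukin signals, differed by 0.43 ± 0.09 (limma adjusted p = 0.0573).

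Sensors of foreign nucleic acid were 4 genes, all tested, and 0 passed or kept aged and young animals apart. Ifih1, known as MDA5, which detects long viral RNA, was at −4.30, −4.73 and −4.26 in young animals, −4.07, −4.03 and −4.42 in middle-aged animals, and −4.29, −3.73 and −4.21 in aged animals. Aged replicate 2 was the highest, and the ages overlapped. Its difference at 24 against 3 months was 0.36 ± 0.19 (limma adjusted p = 0.406) and 0.15 ± 0.21 with slide as a block. Zbp1, a sensor of left-handed nucleic acid that can start cell death, differed by 0.53 ± 0.20 (adjusted p = 0.256) and by 0.07 with normexp. Of its arrays, 3 of 4 young and all middle-aged and aged ones were well above background. Dhx58 (LGP2), a helper of Ifih1, was at −3.69, −3.60 and −3.82 at 3 months, −3.48, −2.83 and −3.63 at 12 months, and −3.64, −3.58 and −3.39 at 24 months, with middle-aged replicate 2 apart from the rest. It differed by 0.17 ± 0.19 (adjusted p = 0.718) and by −0.09 with slide as a block. A second probe of Dhx58 gave −0.13. The probes of Ddx58 (RIG-I, named Rig1 in the current annotation), which detects the ends of viral RNA, disagreed in sign too, at 0.11 for the probe used and −0.10 for the other.

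Antiviral effectors act on viral RNA, proteins or particles. Of 24 such genes 17 were tested, 14 had a higher mean at 24 than at 3 months, and the median difference was 0.30. Oas1a makes the oligoadenylate that switches on an RNA-degrading enzyme. It was at −0.08, −0.37 and −0.34 in young animals, 0.00, 0.21 and −0.15 in middle-aged animals, and −0.05, 0.04 and 0.64 in aged animals. The lowest aged animal lay just above the highest young one, and replicate 3 was the highest of the 9 animals. The difference at 24 against 3 months was 0.47 ± 0.18 (limma adjusted p = 0.279). Its neighbour Oas1b was also highest in aged replicate 3, at −3.08 against −4.13 and −3.74 in the other aged animals.

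Rsad2, or viperin, makes a nucleotide that halts viral RNA synthesis. It was at −1.59, −2.18 and −2.04 at 3 months, −1.86, −1.73 and −1.97 at 12 months, and −1.41, −1.63 and −1.40 at 24 months. Aged animals lay above all middle-aged animals, and young replicate 1 was higher than aged replicate 2. The aged minus young difference was 0.46 ± 0.15 (limma adjusted p = 0.208), and the aged minus middle-aged difference 0.37 ± 0.15 (adjusted p = 0.444). Without young replicate 1 the aged minus young difference was 0.63. Isg20, an RNA-digesting exonuclease, was at −1.19, −1.67 and −1.30 in young animals, −1.09, −1.13 and −0.86 in middle-aged animals, and −0.83, −1.12 and −1.02 in aged animals. Young animals lay below all others, and the 2 older ages overlapped. Its differences were 0.40 ± 0.14 at 24 against 3 months (adjusted p = 0.232), 0.36 at 12 against 3 months and 0.04 at 24 against 12 months. Ifi27, a small hydrophobic protein of mitochondria, had the same order: it was at 3.33, 3.51 and 3.41 at 3 months, 3.70, 3.73 and 3.65 at 12 months, and 3.59, 3.75 and 3.93 at 24 months (24 minus 3 months 0.34 ± 0.10, adjusted p = 0.143).

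Bst2, or tetherin, which ties budding virus to the membrane, was at −2.79, −3.12 and −2.57 in young animals, −3.48, −2.06 and −2.25 in middle-aged animals, and −2.20, −2.67 and −2.29 in aged animals. Middle-aged replicate 1 held the lowest value, and did so in a second Bst2 probe as well (−4.10). The ages overlapped, and the difference at 24 against 3 months was 0.44 ± 0.34 (limma adjusted p = 0.584).

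Mx2, a dynamin-like GTPase that blocks viral entry steps, ran the other way. Its values were −2.59, −2.79 and −2.80 at 3 months, −2.85, −3.07 and −3.31 at 12 months, and −3.31, −2.95 and −3.04 at 24 months. Every older animal lay below every young one, by −0.38 ± 0.14 at 24 against 3 months (limma adjusted p = 0.249) and −0.35 ± 0.14 at 12 against 3 months (adjusted p = 0.699). Its paralogue Mx1 was well above background on 2 of 4 arrays at each age and was not tested.

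The IFIT genes, whose proteins bind foreign RNA ends, had differences of both signs, none of which passed. Ifit1 differed by 0.32 ± 0.15 at 24 against 3 months (limma adjusted p = 0.349), Ifit2 by −0.18 ± 0.18 and Ifit3 by −0.03 ± 0.46. Ifit3 was at −2.63 in young replicate 1, −4.86 in young replicate 2 and −3.98 in young replicate 3, so the young animals spanned more than all older ones, which lay at −3.61 to −4.08. The arrays held 3 probes named Ifit1. The probe used was well above background on all 12 arrays, the next on 3 of 12, all aged, and the one for the curated Ifit1 transcript on 0 of 12. They are shown because the value given for Ifit1 rests on the first alone. That probe is for a predicted transcript under the name Ifit1, on the strand opposite to the curated one. Whether both belong to 1 gene was not tested. Positions are on the rat build rn3 as the array files give them, chr1:238743927-238743986 (minus strand), chr1:238744570-238744629 (minus strand) and chr1:238773972-238774031 (plus strand).
Ifit1 probe measured on 12 arrays: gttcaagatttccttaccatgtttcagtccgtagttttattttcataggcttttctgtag
Ifit1 probe measured on 3 arrays: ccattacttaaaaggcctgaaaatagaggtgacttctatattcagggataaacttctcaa
Ifit1 probe measured on 0 arrays: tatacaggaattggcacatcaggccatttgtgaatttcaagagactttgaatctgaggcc
The probes for predicted transcripts lie near each other on the minus strand, and that for the curated one farther off on the plus strand. Ifit2 and Ifit3 probes lie at chr1:238728967-238729026 and chr1:238738872-238738931.

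Of the other effectors, Ifitm1, Ifitm2 and Ifitm3, which stop virus fusing with the cell membrane, differed by 0.31 ± 0.18, 0.01 ± 0.14 and 0.20 ± 0.13 at 24 against 3 months. Eif2ak2, the kinase PKR that stops translation, differed by 0.16 ± 0.08, and Oas1b by 0.33 ± 0.26. Ifi27l2b, Ifi44 and Ifi44l, little-studied genes with antiviral activity, differed by 0.30 ± 0.16, 0.19 ± 0.12 and 0.28 ± 0.15. Adjusted limma p for these genes lay between 0.37 and 0.982. Ifi44l changed sign with slide as a block (−0.44 ± 0.55). Its arrays of middle-aged replicate 3 were 1.70 apart, the widest gap of any of the 40 genes, and the cause of the sign change was not tested. Oasl was well above background on 0, 2 and 2 of 4 arrays at 3, 12 and 24 months and was not tested, and Oas1k, Oas2, Oas3, Xaf1 and Samd9l had no probe under their names.

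**Figure D3:**
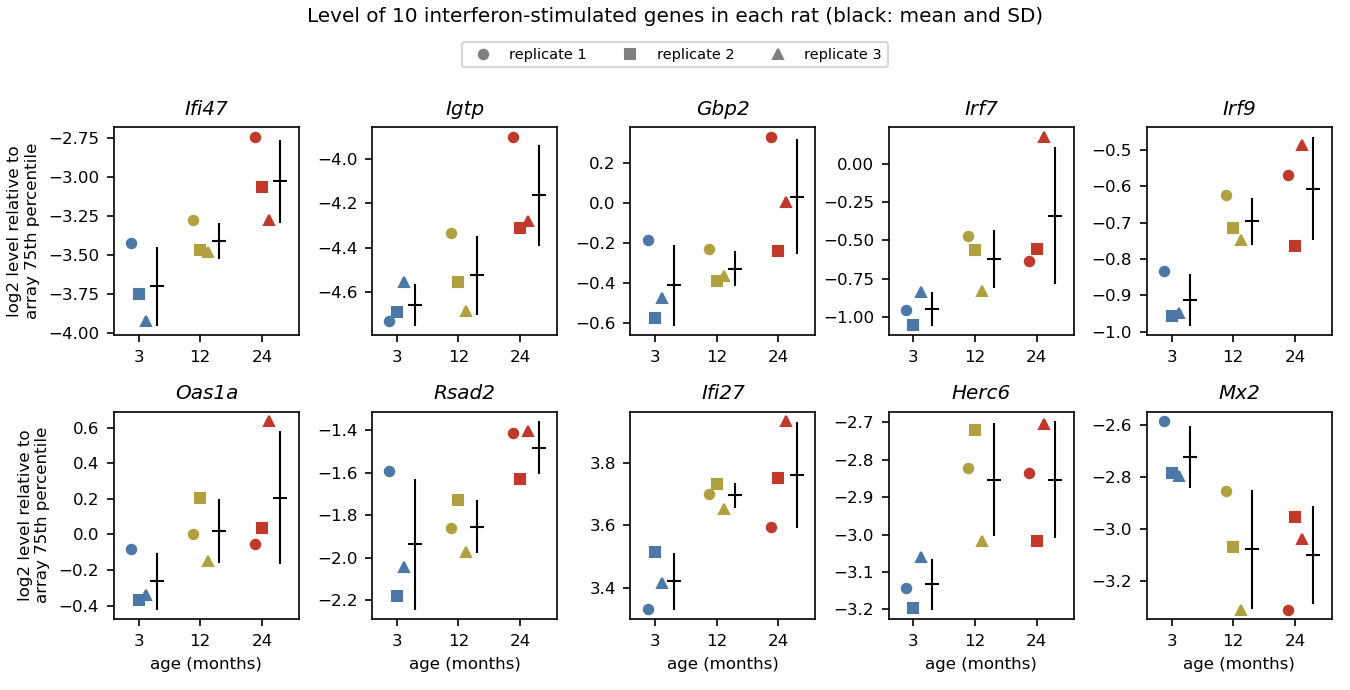
Log2 level of 10 genes in each rat (circles, squares and triangles for replicates 1 to 3) at 3, 12 and 24 months, relative to the array's 75th percentile; black marks give mean and SD (n = 3), and each panel has its own scale. Ifi47, Igtp and Gbp2 are highest in aged replicate 1, Irf7 and Oas1a in aged replicate 3, and Mx2 runs downward.

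The GTPases of the IRG and GBP families, which in mice attack the vacuoles of intracellular parasites and respond above all to interferon gamma, numbered 7 genes. Of these 5 were tested, all 5 had a higher mean at 24 than at 3 months, and the median difference was 0.44. Ifi47 was at −3.42, −3.75 and −3.92 in young animals, −3.27, −3.47 and −3.48 in middle-aged animals, and −2.74, −3.06 and −3.27 in aged animals. Every aged animal lay above every young one, and the lowest aged and the highest middle-aged animal were both at −3.27. The difference at 24 against 3 months was 0.67 ± 0.16 (limma adjusted p = 0.086), 0.64 ± 0.19 with slide as a block (adjusted p = 0.2) and 0.63 on slide 3. With normexp it was 0.31 ± 0.09 (adjusted p = 0.207). Of all 40 genes it came nearest to the threshold in the fit reported, and with the animal as a random block over 12 arrays it passed (adjusted p = 0.0444).

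Igtp, also known as Irgm3 in mice, was at −4.73, −4.69 and −4.55 at 3 months, −4.33, −4.55 and −4.68 at 12 months, and −3.90, −4.31 and −4.28 at 24 months. Aged animals lay above all others, and young and middle-aged animals overlapped. Its difference at 24 against 3 months was 0.49 ± 0.13, a 1.41-fold higher mean (limma adjusted p = 0.121), and with normexp 0.11 ± 0.11 (adjusted p = 0.837). It was 0.13 ± 0.13 at 12 against 3 months (adjusted p = 0.978) and 0.36 ± 0.13 at 24 against 12 months (adjusted p = 0.413). Gbp2, a guanylate-binding protein, was at −0.18, −0.57 and −0.47 in young animals, −0.23, −0.39 and −0.37 in middle-aged animals, and 0.33, −0.24 and 0.00 in aged animals. Young replicate 1 exceeded aged replicate 2, so the ages overlapped, and the difference at 24 against 3 months was 0.44 ± 0.15 (adjusted p = 0.226). Irgm, which in mice restrains the other IRG proteins, differed by 0.30 ± 0.14, with aged animals at −2.93, −2.90 and −2.74 and young animals at −2.97, −3.24 and −3.25, which did not overlap. Gbp4 differed by 0.19 ± 0.15, with 2 of 4 young arrays well above background. Aged replicate 1 was the highest of 9 animals for 4 of the 5 GTPases. Gbp5 was well above background on 1 aged array only, and Gbp1 had no probe under its name.

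For the 5 GTPases the median difference was 0.09 at 12 against 3 months and 0.36 at 24 against 12 months. For the 4 STAT and IRF factors it was 0.22 and 0.02, and for the 17 effectors 0.12 and 0.08. Both comparisons use the same middle-aged animals, and the difference between role groups was not tested. Under normexp the median at 24 against 3 months was 0.18 for the GTPases and 0.18 for the effectors.

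Promoters were read for 39 of the 52 genes in the RefSeq table on the rat build GRCr8, as windows of 300 bases running from 250 before the annotated start to 50 after it. The ISRE core was searched as GAAANNGAAA and the GAS as TTCNNNGAA, on both strands, where N is any base; matches of both motifs may overlap. The ISRE core was in 26 of the 39 promoters (66.7%), against 3.77% of 27456 promoters in the table. The GAS was in 13 of 39 (33.3%), against 8.68%. Both were in 8 of the 39, against 144 of the 27456. A match is a description of sequence and not a site of binding.

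The promoters of 3 GTPases and of Parp14 are printed as examples, not picked by a rule, with the motif matches in capitals. In these genes aged and young animals did not overlap, which also held for genes with other motifs or none. Parp9 and Herc6 had neither motif, Isg20 an ISRE core alone and Irf9 a GAS alone. In Igtp (chr10:42874797-42875096, plus strand), Irgm (chr10:33742529-33742828, minus strand) and Parp14 (chr11:78407884-78408183, plus strand) a GAS is followed by an ISRE core, while Ifi47 (chr10:33798494-33798793, plus strand) holds 2 GAS matches and 0 ISRE cores. Igtp, Irgm and Ifi47 lie on the same chromosome.
Igtp promoter: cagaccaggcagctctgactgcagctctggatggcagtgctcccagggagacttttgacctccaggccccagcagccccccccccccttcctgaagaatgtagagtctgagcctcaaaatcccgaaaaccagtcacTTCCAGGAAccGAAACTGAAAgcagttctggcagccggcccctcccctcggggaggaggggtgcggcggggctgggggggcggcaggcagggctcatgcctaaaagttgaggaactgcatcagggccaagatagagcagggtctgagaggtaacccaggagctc
Irgm promoter: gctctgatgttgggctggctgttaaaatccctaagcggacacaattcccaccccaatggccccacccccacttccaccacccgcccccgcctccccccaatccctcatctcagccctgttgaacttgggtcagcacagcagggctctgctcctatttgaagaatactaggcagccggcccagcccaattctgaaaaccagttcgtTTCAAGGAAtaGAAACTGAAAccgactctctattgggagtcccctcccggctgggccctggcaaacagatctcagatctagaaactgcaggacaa
Parp14 promoter: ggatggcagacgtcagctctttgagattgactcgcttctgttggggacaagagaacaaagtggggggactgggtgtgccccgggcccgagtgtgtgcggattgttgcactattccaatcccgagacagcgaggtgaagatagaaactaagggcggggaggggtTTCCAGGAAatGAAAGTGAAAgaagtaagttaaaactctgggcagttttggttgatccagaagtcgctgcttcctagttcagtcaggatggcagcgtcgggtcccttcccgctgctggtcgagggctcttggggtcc
Ifi47 promoter: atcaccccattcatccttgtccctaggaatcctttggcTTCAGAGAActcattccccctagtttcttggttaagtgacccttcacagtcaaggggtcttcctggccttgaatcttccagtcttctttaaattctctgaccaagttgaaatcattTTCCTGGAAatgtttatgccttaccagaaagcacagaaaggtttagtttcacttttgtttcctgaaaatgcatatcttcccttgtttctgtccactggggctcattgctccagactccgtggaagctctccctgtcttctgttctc
In the first 3 the GAS starts 11 bases before the ISRE core, with 2 bases between the motifs. They start 114, 45 and 87 bases before the annotated transcript start, in the order printed. This spacing, looked at after the positions were seen, was in 4 of 27456 promoters (0.0146%), and 3 of the 4 were these genes. It was taken from these genes, so their place among the 4 was fixed beforehand. Promoters with the ISRE core before the GAS were not counted.

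Effector and factor promoters had other arrangements. Oas1a (chr12:41330216-41330515, plus strand) has overlapping ISRE cores close to its start and a GAS farther off, and Irf7 (chr1:205799974-205800273, minus strand) 1 ISRE core, whose capitals read as the reverse complement because the match is on the other strand.
Oas1a promoter: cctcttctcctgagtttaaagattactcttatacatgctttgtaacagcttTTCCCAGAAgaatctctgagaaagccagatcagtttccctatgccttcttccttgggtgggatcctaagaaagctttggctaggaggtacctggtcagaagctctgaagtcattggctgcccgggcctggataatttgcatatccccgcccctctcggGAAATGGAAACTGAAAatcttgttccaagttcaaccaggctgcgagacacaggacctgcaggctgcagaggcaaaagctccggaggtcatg
Irf7 promoter: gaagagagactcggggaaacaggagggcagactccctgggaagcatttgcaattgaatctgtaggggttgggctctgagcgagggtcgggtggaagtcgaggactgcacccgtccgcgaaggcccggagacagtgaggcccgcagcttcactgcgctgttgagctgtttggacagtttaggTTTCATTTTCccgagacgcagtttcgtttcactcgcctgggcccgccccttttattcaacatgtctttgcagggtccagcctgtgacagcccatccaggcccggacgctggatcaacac
Of the tested genes with a promoter, the 22 with an ISRE core had a median difference of 0.34 at 24 against 3 months and the 8 without one 0.17. The 12 with a GAS had 0.31 and the 18 without one 0.23. These medians are descriptions without a test, and both groups ranged widely. With an ISRE core they ran from −0.03 (Ifit3) to 0.93 (Dtx3l, kept through the aged arrays alone). Without one they ran from −0.04 (Stat2) to 0.67 (Ifi47).

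**Figure D4:**
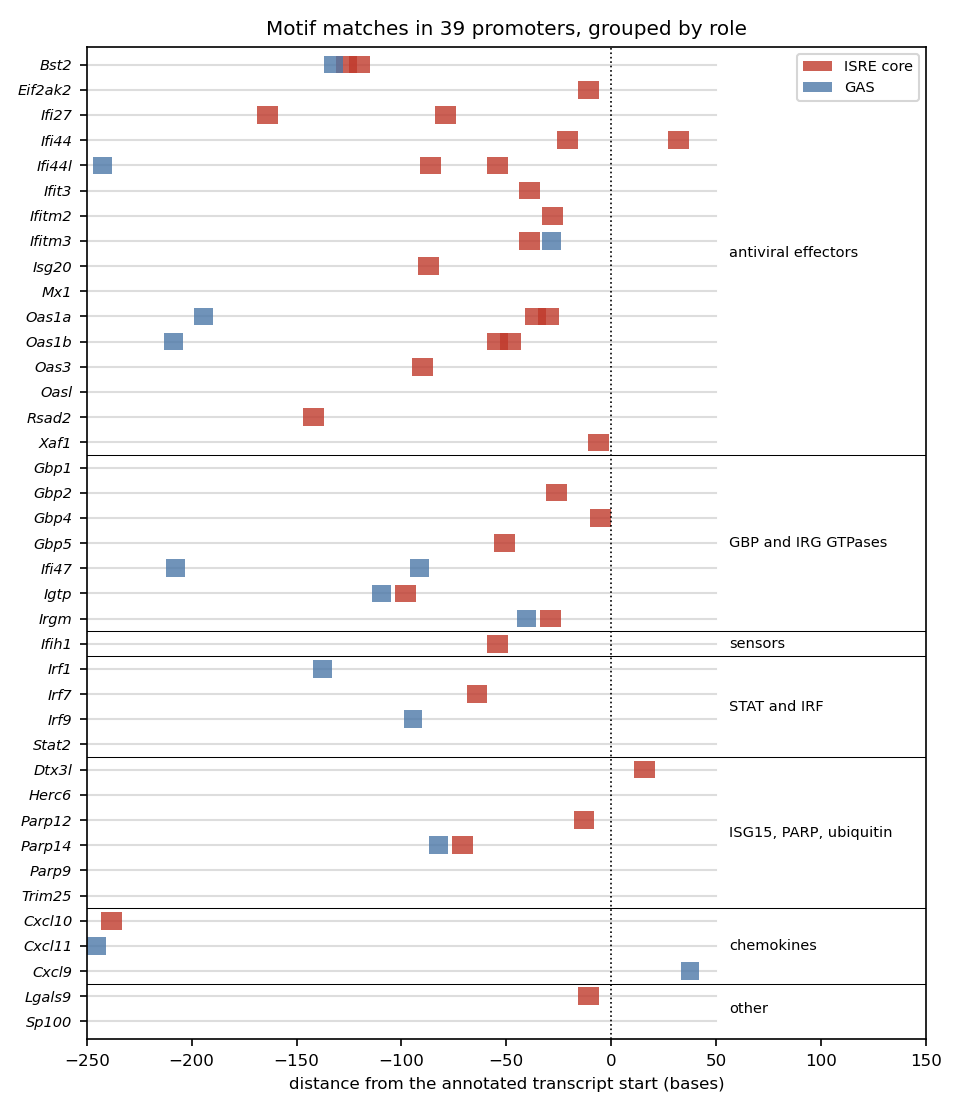
Matches of the ISRE core (red) and the GAS (blue) in the promoters of 39 genes, by distance in bases from the annotated transcript start (dotted line), grouped by role. ISRE cores are in 26 promoters, most of them close to the start, and the adjacent pair is visible in Igtp, Irgm and Parp14.

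Enzymes of the ISG15 system, ADP-ribosylation and ubiquitin transfer were 8 genes, of which 7 were tested, all with a higher mean at 24 than at 3 months (median 0.24). Parp14, which attaches ADP-ribose to proteins and nucleic acid, was at −3.77, −3.86 and −3.93 in young animals, −3.76, −3.64 and −3.93 in middle-aged animals, and −3.37, −3.64 and −3.63 in aged animals. The aged animals lay above the young, by 0.31 ± 0.11 (limma adjusted p = 0.223), and a second probe gave 0.31. Herc6, the ligase that joins ISG15 to proteins in mice, was at −3.14, −3.20 and −3.06 at 3 months, −2.82, −2.72 and −3.02 at 12 months, and −2.84, −3.02 and −2.71 at 24 months. Young animals lay below all others, with differences of 0.28 ± 0.11 at 24 against 3 months (adjusted p = 0.268), 0.28 at 12 against 3 months and 0.00 at 24 against 12 months.

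Parp9 and Dtx3l form a ligase complex. Parp9 differed by 0.18 ± 0.10 at 24 against 3 months, with the aged and young animals apart, and Dtx3l by 0.93 ± 0.43, the largest difference of the 40. Dtx3l was dim, well above background on 2, 2 and 4 of 4 arrays at 3, 12 and 24 months, so it was kept through the aged arrays alone. Its difference still counts in the medians and in the number above 0. Aged replicate 2 was its highest animal (−4.41), and with slide as a block it differed by 0.40 ± 0.52. Isg15, the ubiquitin-like tag itself, differed by 0.24 ± 0.18, and Usp18, which removes the tag and quiets the type I receptor, by 0.24 ± 0.19. Trim25, a ligase that activates Ddx58, differed by 0.05 ± 0.17, with aged replicate 3 the lowest of 9 animals (−1.10). Parp12 was well above background on 0 of 12 arrays.

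The chemokines that call T cells through the receptor Cxcr3 varied between animals. Cxcl10 was at −3.87, −4.93 and −4.16 in young animals, −4.49, −4.96 and −4.10 in middle-aged animals, and −4.15, −3.24 and −4.17 in aged animals. Aged replicate 2 alone stood apart, the ages overlapped, and the difference at 24 against 3 months was 0.47 ± 0.35 (limma adjusted p = 0.568), or −0.10 on slide 3, which lacks that animal. Cxcl9 was at −5.16, −4.44 and −4.92 at 3 months, −5.23, −5.11 and −5.27 at 12 months, and −4.67, −4.98 and −4.71 at 24 months. Middle-aged animals lay below the aged ones (24 minus 12 months 0.42 ± 0.17, adjusted p = 0.444), and the aged minus young difference of 0.05 ± 0.17 changed sign with the processing. Cxcl11 was well above background on 1, 2 and 3 of 4 arrays at 3, 12 and 24 months and was not tested. Lgals9, a galectin that binds inhibitory receptors on T cells, differed by 0.10 ± 0.09 (adjusted p = 0.66), with young animals at −1.25, −1.28 and −1.36, middle-aged animals at −1.20, −1.16 and −1.37, and aged animals at −1.16, −1.35 and −1.09. Its ages overlapped, and Sp100, a nuclear body protein, had no probe under its name.

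The comparison of 12 with 3 months asked which of these genes already differed at mid-life. Of the 40 genes 0 passed, against 0.201% of all items (0.161% higher and 0.0393% lower), and 33 had a higher mean at 12 months (54.2% of all items), with a median difference of 0.13 against 0.01. Middle-aged animals lay above all young animals in 9 genes (22.5%, background 6.74%), which were Isg20, Irf7, Irf9, Ifi27, Ifi27l2b, Ifi44, Ifi44l, Herc6 and Trim25, and below them in Mx2 (background 4.61%). The unadjusted limma p was under 0.05 in 6 higher and 1 lower, against 3.72% and 2.63%. The lowest adjusted p was that of Ifi44l, 0.385, the gene whose paired arrays disagreed.

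Between 24 and 12 months 0 of the 40 genes passed, against 0.0118% of all items. A higher mean at 24 months was seen in 32 genes (55.3% of all items), and the median difference was 0.12 against 0.02. Aged animals lay above all middle-aged animals in 5 genes, Ifi47, Igtp, Rsad2, Parp9 and Cxcl9 (12.5%, background 10.4%), and below them in 0 (background 6.59%). At an unadjusted limma p under 0.05 there were 5 higher and 0 lower, against 7.59% and 3.12%. The moderated F test over all ages called 0 of the 40 genes, and 1.15% of all items. The comparisons share animals, so their counts are not independent of each other.

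Animals of an age differed more in these genes than in most. The median SD between animals was 0.20 at 3 months, 0.17 at 12 months and 0.21 at 24 months for the 40 genes, against 0.12, 0.13 and 0.12 over all items. Both arrays of one animal differed by a median of 0.06, 0.06 and 0.07. As a median over the 40 genes relative to the young mean, young animals stood at 0.08, −0.07 and −0.05, middle-aged animals at 0.21, 0.18 and 0.06, and aged animals at 0.19, 0.20 and 0.34. Aged animals lay above the young, and middle-aged replicate 3 lay among the young. Aged replicate 3 was the highest of the 9 animals in 16 of the 40 genes, 8 of them effectors, and young replicate 2 was the lowest in 17. Over all items aged replicate 3 also had the highest median of the 9 animals (0.07), and such counts were not made there. The GTPases had another order: their medians were 0.18, −0.05 and −0.10 in young animals, 0.20, 0.10 and −0.03 in middle-aged animals, and 0.74, 0.25 and 0.41 in aged animals.

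Slide was partly tied to age. Slide 3 alone held all ages, and there the median of the 40 genes was 0.32 at 24 against 3 months, 0.02 at 12 against 3 months and 0.27 at 24 against 12 months, with 1 animal of each age. On slide 1 middle-aged replicate 1 exceeded the young animals by a median of 0.22, and on slide 2 the aged exceeded the middle-aged by 0.09. Irf7 at 12 against 3 months was 0.49 on slide 1 and −0.04 on slide 3, whereas Irf9 was 0.30 and 0.25, Ifi27 0.28 and 0.25, and Isg20 0.32 and 0.41. Ifi47 at 24 against 12 months was 0.56 on slide 2 and 0.24 on slide 3, and Igtp 0.50 and 0.44.

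**Figure D5:**
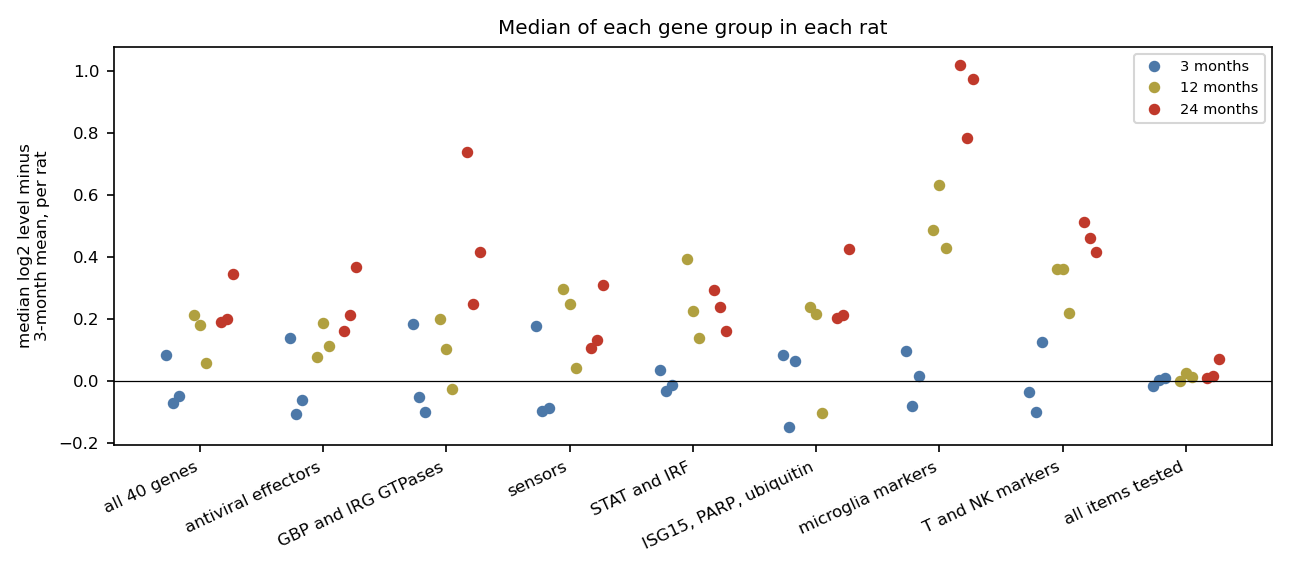
Median log2 level of gene groups in each rat, relative to the mean of the rats aged 3 months (blue, 3 months; yellow, 12 months; red, 24 months; 1 point a rat). The aged rats lie at 0.19 to 0.34 for the 40 genes and at 0.78 to 1.02 for 14 microglia markers, and all items tested stay at −0.02 to 0.07.

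Among other genes known to respond to interferon, outside the 52, some rose at 24 against 3 months. Of 21 tested from a list of 29, 6 rose (background 1.57%), 0 fell and 15 did not pass, 18 differences lay above 0, and the median was 0.38. In 14 all aged animals lay above all young ones (66.7%, background 14%). Among them Trim21 was well above background on 2, 2 and 4 of 4 arrays at 3, 12 and 24 months. It was kept through the aged arrays alone. The difference between this list and the 52 genes was not tested. Of the 6 that rose, 3 serve the display of peptides to T cells. They were the immunoproteasome subunits Psmb8 (0.73 ± 0.11, limma adjusted p = 0.0162) and Psmb9 (0.76 ± 0.13, adjusted p = 0.0213), and the peptide transporter chain Tap2 (0.76 ± 0.15, adjusted p = 0.04). Ifi30, a thiol reductase of antigen processing, rose by 0.58 ± 0.09 (adjusted p = 0.0174), Lgals3bp, a secreted glycoprotein, by 0.66 ± 0.12 (adjusted p = 0.032), and Uba7, the enzyme that activates ISG15, by 0.46 ± 0.09 (adjusted p = 0.0493). The calls of Lgals3bp, Tap2 and Uba7 were lost in 12, 14 and 16 of 23 other settings, and those of Psmb8, Psmb9 and Ifi30 in 3, 4 and 5. The highest adjusted p of these 6 genes was 0.169, for Uba7 without young replicate 2.

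Markers of other cells moved with age beside these genes. Of 14 microglia markers, all well above background, 11 rose and 0 fell at 24 against 3 months, with a median of 0.95, and Cx3cr1, the microglial fractalkine receptor, was among them (0.68 ± 0.12, limma adjusted p = 0.0255). The per-animal medians of the list were −0.08 to 0.10 at 3 months, 0.43 to 0.63 at 12 months and 0.78 to 1.02 at 24 months. Of 8 T and NK cell markers 3 rose (median 0.43, per-animal medians −0.10 to 0.13 at 3 months, 0.22 to 0.36 at 12 months and 0.41 to 0.51 at 24 months). Of these, Cd6 was well above background on all arrays, whereas Cd4 and Prf1 were so on 0 of 4 young arrays and were kept through the aged arrays, and both lost their calls with normexp (limma adjusted p = 0.446 and 0.252). On the list of perivascular macrophages and monocytes 5 genes were tested and 2 rose, Lyve1 and Pf4, with a median of 0.96. The call of Pf4 was lost in 11 of 23 other settings (highest limma adjusted p 0.134, without young replicate 2). That of Lyve1 was lost in 1, the mean of all kept probes of a gene (adjusted p = 0.108). The list also holds S100a8 and S100a9, calcium-binding proteins of neutrophils and monocytes, which had its largest differences (2.41 ± 0.71 and 2.00 ± 0.42) and did not pass. S100a8 was well above background on 1 of 4 young arrays and on all middle-aged and aged ones, so it was kept through the older animals. Of 4 red cell genes 0 rose (median 0.88), and of 7 oligodendrocyte genes 1 fell (median −0.45). Neuron and endothelium markers had medians of −0.07 and −0.14 with 0 called. Astrocyte markers had a median of −0.08 with 0 called, from −0.54 for Aldh1l1, a folate enzyme, to 0.92 for Gfap, the filament of reactive astrocytes (adjusted p = 0.1). Of 6 catecholamine neuron genes 0 were called (median −0.31), with Dbh at −0.92 ± 0.20 (adjusted p = 0.0655) and the vesicle transporter Slc18a2 at −0.53 ± 0.16 (adjusted p = 0.162). The part of these cells in the differences of the interferon-stimulated genes was not tested.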

How the data were processed

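Members and gene lists were chosen with earlier results of these data known. RNA of RVLM punches from 9 rats was measured on 12 Agilent 1-colour arrays. The deposited array files hold fluorescence intensity, which the authors extracted with the Agilent software Feature Extraction, version 9.5.1.1 (per the submitters' processing notes), and per the file headers the processed signal used here was background-subtracted and detrended. Other columns of the deposited files are flags of 0 or 1 for outlier, saturated and well-above-background spots. The deposited series matrix holds a score per feature, scaled within each array by the authors, and correlating at 1.0 with the log2 processed signal; its centring rule is known only from its values, and it served as an alternative.

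From these files, log2 signals were taken, outlier spots set missing, spots of a probe averaged, the 75th percentile of an array's non-control probes subtracted, and paired arrays of an animal averaged. Of 41012 probes, 29792 were kept, which on all arrays of 1 or more ages were well above background. The kept probe with the highest mean stood for a gene, which gave 25421 items, 14089 with a gene name. Names came from RefSeq (GRCr8) by accession for 10735 and 126 probes, by name for 6744 and by synonym for 3704; 2099 kept the file's name and 17604 had none. Members were matched by the file's or the current symbol. Probe positions are on rn3, per the file headers. Promoters come from the RefSeq table on GRCr8.

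The values of all 9 animals entered a limma fit with a mean for each age (version 3.58.1, R 4.3.3) (prior degrees of freedom 2.64). It had 3 contrasts and a moderated F test, and p-values were adjusted over all items. The labels call the animals biological replicates, and the tests measure the spread between these animals. Per-animal values are given for the genes with the largest difference in each role (4 effectors, 2 of each other role) among those measured on all arrays, and for others where an animal, a probe or a setting decides their value, chosen after their values were seen. Replicate numbers did not pair the animals: deviations of same-numbered animals correlated at −0.41 to 0.37. The limma script was tested on simulated data. 1 gene of the pathway lists is not reported here.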

Additional observations from a re-analysis of the deposited data

How the results depend on the processing

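With the settings below the median of the 40 genes stayed above 0 in each comparison, while single genes changed sign: 0 to 5 per setting at 24 against 3 months, up to 13 at 12 against 3 months (slide 3, with 24 of 40 above 0; 7 with normexp) and up to 9 at 24 against 12 months (without aged replicate 3). Of the 40 genes 1 was called at 24 against 3 months in 4 settings and 0 in the fit reported: Ifi47 with the replicate block (adjusted p = 0.0238), with 12 arrays and the animal as a random block (0.0444) and at an adjusted p under 0.1 (0.086), and Rsad2 when replicates were left out in turn (0 or 1 called; 1 without young replicate 1, 0.0458). The replicate block changed no other call of the 40. The median of the 40 genes was 0.12 with normexp at 24 against 3 months, 0.020 on slide 3 and 0.22 on slide 1 (slides 1 and 2 alone were added after the data were seen) at 12 against 3 months, and 0.27 on slide 3 at 24 against 12 months. The causes were not tested.

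Among the 15 genes picked by largest difference, signs at 24 against 3 months turned for Cxcl9 with normexp (−0.038), quantile normalization (−0.065) and the series matrix (−0.062), and when replicates were left out in turn (lowest −0.11, highest 0.25); for Dhx58 with slide as a block (−0.088); and for Cxcl10 on slide 3 (−0.098). Among the rest, Gbp4 turned with normexp, Ifitm2 with median scaling and series matrix values, Ifit3, Ifi44l and Trim25 with slide as a block, Ifit2, Ifit3, Irf1 and Trim25 on slide 3, and Ifit3, Ifitm2, Stat2 and Trim25 when a replicate was left out.

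Counts over all items moved more. At 24 against 3 months 520 items were called, against 309 with normexp, 289 without the filter on dim probes, 321 with slide as a block, 343 with only the 2 ages compared and 909 at an adjusted p under 0.1, and 271 without young replicate 3. At 12 against 3 months 51 became 2 without middle-aged replicate 2, 3 with only these ages compared, 5 without the filter, 8 with the replicate block, 23 with normexp, 33 with slide as a block or series matrix values, 32 with the second array of each replicate 3, and 95 at an adjusted p under 0.1. At 24 against 12 months 3 became 0 in several settings, 13 with trend and robust eBayes, 20 at an adjusted p under 0.1 and 26 with 12 arrays. The F test called 293 items, against 153 without the filter, 158 with the replicate block, 182 with slide as a block, 104 without young replicate 3 and 520 at an adjusted p under 0.1. Signals near background limit Dtx3l, Gbp4, Zbp1 and the untested genes.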
